A study of Mus musculus with 12 samples.

Results

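The 37 genes described here code for the uptake of fatty acids, their activation, their passage into mitochondria, beta-oxidation and its control, in mouse heart cardiomyocytes. They were chosen by symbol, with earlier results of these data known, so member counts set beside those of all genes are descriptive and not a test. All 37 were found among the 25239 gene symbols of each of 2 deposited count tables. They are grouped by step: uptake (2 genes), activation (4), the carnitine shuttle (4), malonyl-CoA control (2), beta-oxidation (13), thioesterases and uncoupling (4), electron transfer (3) and PPAR control (5). The knockout mice carry Myh6-Cre (Cre recombinase under a promoter active in heart muscle cells) together with Chaf1a f/f, and the controls carry Chaf1a f/f alone. The CHAF1A protein is a subunit of the CAF-1 complex, a histone chaperone that loads histones onto newly copied DNA. One table, called the first set here, holds 3 libraries labelled Chaf1a cko and 3 labelled Ctrl. The other, called the 3M set, holds 3 libraries labelled Chaf1a cko 3M and 3 labelled Ctrl 3M. In the sample labels the genotype of the controls is given as WT, the age is not given, and 3M is not spelled out. RNA came from cultured cardiomyocytes, per the labels' protocols. Cre is present in the cko groups alone, so Cre itself and the deletion cannot be told apart. Whether the 3 libraries of a group come from separate animals or separate pools of animals is not stated. The p-values therefore measure only the spread between libraries, which may be technical.

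Fatty acids enter heart muscle cells through carriers such as CD36, are joined to coenzyme A by acyl-CoA synthetases, and cross the inner mitochondrial membrane as carnitine esters. Beta-oxidation then shortens the acyl-CoA in repeated rounds of dehydrogenation, hydration, dehydrogenation and thiolysis, and passes electrons to the respiratory chain through the electron transfer flavoprotein. The adult heart draws most of its energy from this pathway, while the fetal heart relies more on glucose and lactate. The nuclear receptors PPAR alpha and PPAR delta and the estrogen-related receptor alpha, with their coactivator PGC-1 alpha, turn on many genes of the pathway.

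Levels below are CPM, a gene's count relative to the total of its library and scaled by TMM factors, and a gene rose or fell where its Benjamini-Hochberg adjusted p was under 0.05 in the quasi-likelihood test of edgeR, adjusted over all genes tested in its table. The libraries of the first set hold 15068468 to 20896673 counts each, those of the 3M set 10569325 to 16445963. Chaf1a itself was at 29.0, 24.5 and 22.0 CPM in the libraries labelled Chaf1a cko, against 22.7, 32.3 and 18.8 CPM in Ctrl (adjusted p 0.981 in edgeR). It was at 8.34, 5.58 and 5.54 CPM in the libraries labelled Chaf1a cko 3M, against 1.88, 4.74 and 9.75 CPM in Ctrl 3M (adjusted p 0.952 in edgeR). The targeted gene was thus not lower in the cko libraries, and every direction below is that of libraries so labelled. Which exons the deletion removes is not stated, so the total over the gene checks the labels only in part. In the first set, summed Y-linked reads were at 111 to 135 CPM in Chaf1a cko and at 50.7 to 60.6 CPM in Ctrl, so a difference in sex mixture cannot be told apart from the genotype there. Xist was at 262 to 325 CPM in Chaf1a cko and at 294 to 630 CPM in Ctrl, with overlap. Each first-set library thus held both Xist and Y-linked reads, as a mix of male and female cells would, and not those of a single animal. How many animals went into each is not stated. In the 3M libraries Xist was at 0 to 3.97 CPM and Y-linked reads at 355 to 644 CPM. The sets thus differ in sex make-up too, which cannot be told apart from other differences between them. Cardiomyocyte markers were abundant in all groups, with Myh6 at means of 37062 CPM in Chaf1a cko, 40460 CPM in Ctrl, 26461 CPM in Chaf1a cko 3M and 16212 CPM in Ctrl 3M. Endothelial markers were present too, with Cdh5 at means between 795 and 1066 CPM in the 4 groups. Adipocyte markers were low, and Adipoq, Lep and Plin1 had no counts in the 3M set.

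In the first set, 4 of the 37 genes fell in the libraries labelled Chaf1a cko, 0 rose and 33 did not pass. They were Pdk4, Acot2, Acaa2 and Cd36, each lower by between 0.21 and 0.46 on the log2 scale. In RefSeq's GRCm38.p6 annotation these protein-coding genes lie on chromosomes 6 (5483351 to 5496278), 12 (83987861 to 83993877), 18 (74779212 to 74806207) and 5 (17781690 to 17888959), in that order. Over all 22965 genes tested, 1.18% passed, 0.740% higher and 0.435% lower. At an unadjusted p under 0.05, 12 members were lower and 1 was higher, against 4.50% lower and 5.63% higher of all genes tested (10.1% in either direction). The median log2 fold change of the members was -0.11, with 26 below 0 and 11 above, while over all genes the median was -0.01, with 50.9% below 0 and 49.1% above. Among the 10402 genes with at least 10 CPM in 3 libraries, 7 of 36 members passed, all lower, against 1.68% of these genes lower and 3.52% in either direction. The 3 members added by that filter were Acsl1, Acacb and Hadha. In bulk libraries, fewer cells of a type and less RNA per cell cannot be told apart.

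**Figure D1:**
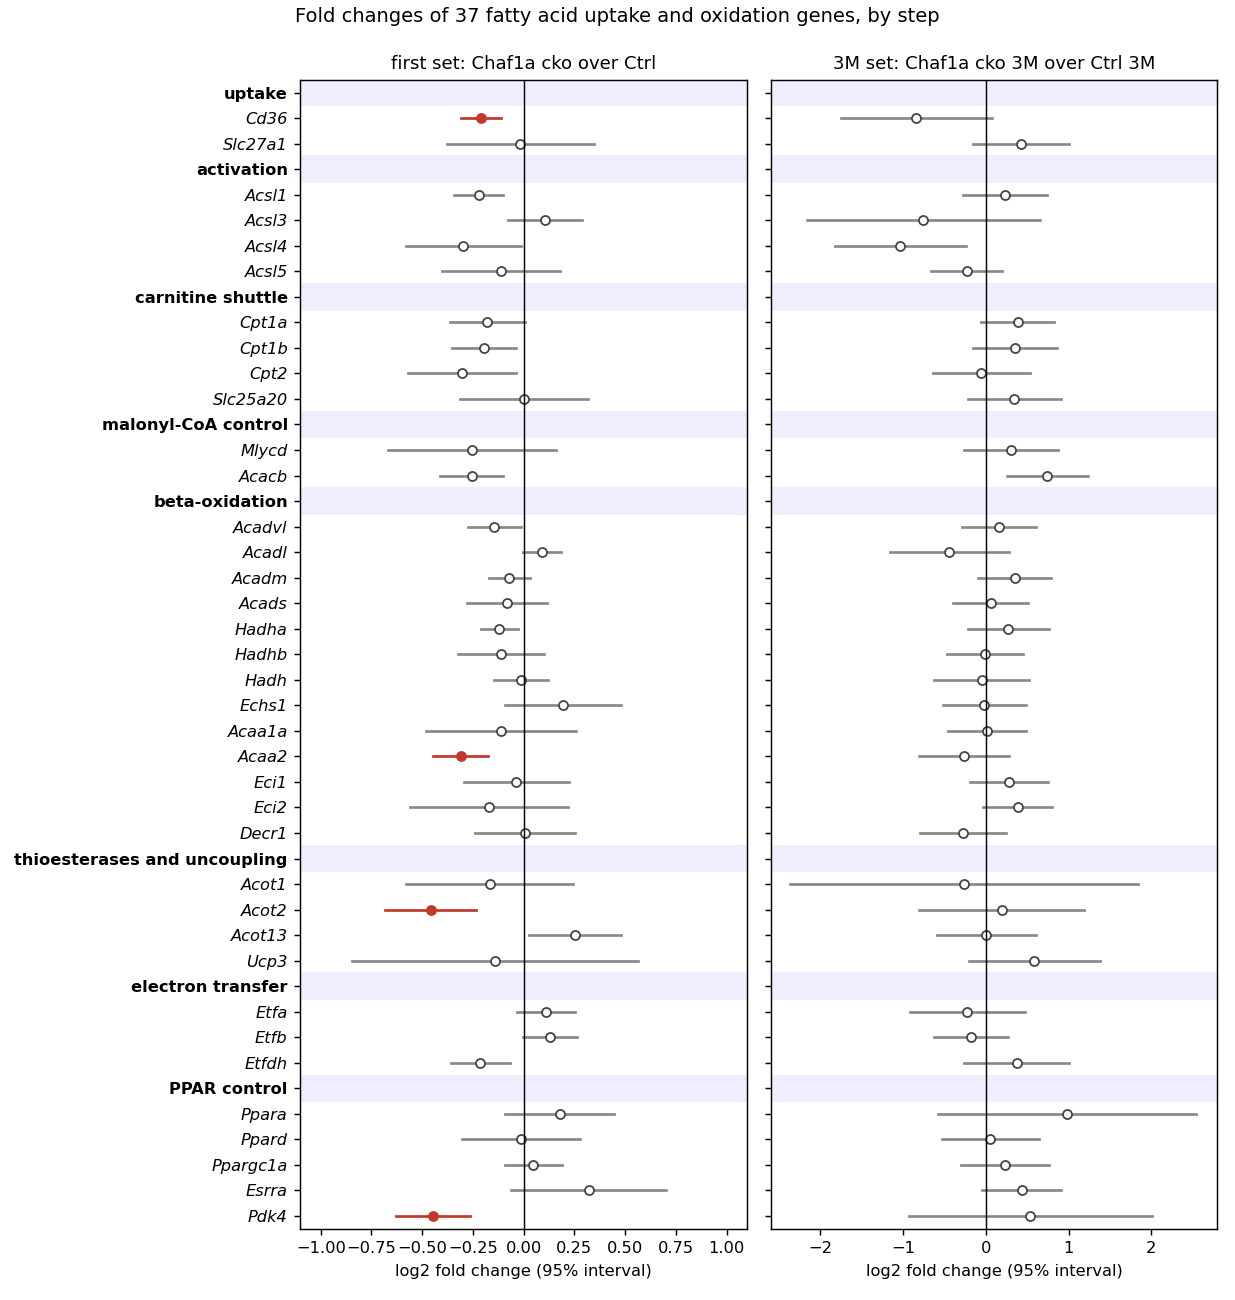
Log2 fold changes of the 37 genes by step, with 95% intervals, for Chaf1a cko over Ctrl (left) and Chaf1a cko 3M over Ctrl 3M (right). Filled red points are genes past an adjusted p of 0.05: Cd36, Acaa2, Acot2 and Pdk4 on the left and 0 on the right, where the intervals are wider.

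Pdk4 encodes a kinase that switches off pyruvate dehydrogenase and so spares glucose, and it is a well-known PPAR target. It was at 71.4, 74.0 and 79.4 CPM in Chaf1a cko and at 114, 96.9 and 95.8 CPM in Ctrl, so the groups did not overlap. It fell by 0.45 on the log2 scale (SE 0.09), and the 95% interval of the log2 fold change, -0.63 to -0.27, excluded 0 (adjusted p 0.0118 in edgeR). Acot2, a mitochondrial thioesterase that frees fatty acids from coenzyme A, was at 53.2, 42.2 and 48.4 CPM in Chaf1a cko, against 71.9, 63.4 and 62.2 CPM in Ctrl. It fell by 0.46 on the log2 scale (SE 0.11, adjusted p 0.0421 in edgeR), and its groups did not overlap either. Acaa2, the thiolase of medium-chain acyl-CoA, was at 179, 165 and 179.6 CPM in Chaf1a cko, against 219.9, 230.1 and 199 CPM in Ctrl. Every Chaf1a cko library was below every Ctrl library, and the log2 fold change was -0.31 (SE 0.06, adjusted p 0.0214 in edgeR). Cd36, the main fatty acid carrier of heart muscle and of its capillaries, was at 545, 524 and 562 CPM in Chaf1a cko, against 663, 634 and 589.9 CPM in Ctrl. Again the groups did not overlap, with a log2 fold change of -0.21 (SE 0.05, adjusted p 0.0306 in edgeR). Leaving out any 1 of the 6 libraries ended at least 1 of these calls. For the 4 genes, leaving out replicate 1 of Chaf1a cko left 0 calls, leaving out its replicate 2 left 0, and leaving out its replicate 3 left 1 (Pdk4). The same count was 0 without Ctrl replicate 1, 1 (Pdk4) without Ctrl replicate 2, and 3 (Pdk4, Acaa2 and Cd36) without Ctrl replicate 3, while all stayed below 0. The adjusted p over these 6 fits was 0.0226 to 0.0842 for Pdk4, 0.0112 to 0.158 for Acaa2, 0.0133 to 0.224 for Cd36 and 0.0517 to 0.24 for Acot2 in edgeR.

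**Figure D2:**
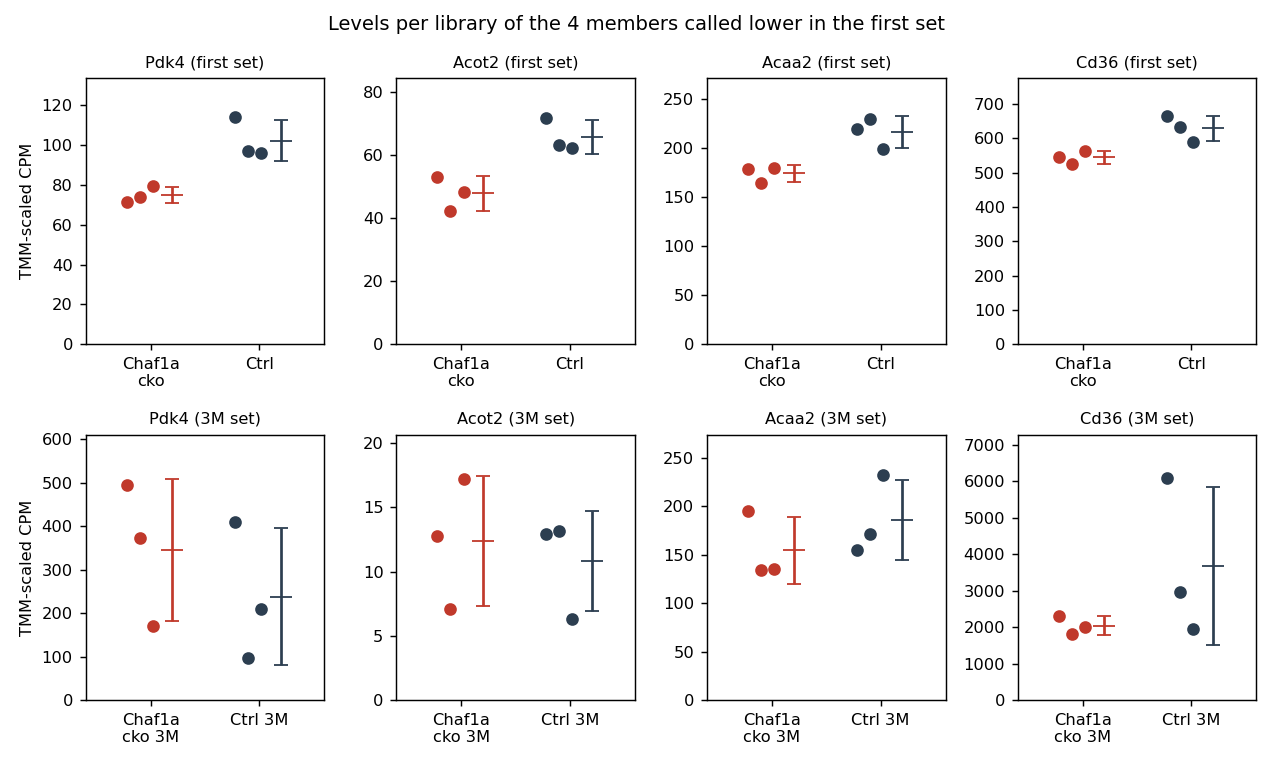
TMM-scaled CPM of Pdk4, Acot2, Acaa2 and Cd36 in each library (points) with the mean and SD of 3 libraries (bars), for the first set (top) and the 3M set (bottom). In the first set all 3 Chaf1a cko points lie below all 3 Ctrl points for each gene, and in the 3M set the points of the groups overlap for each gene.

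No promoter window was at hand for Acaa2. The promoters of the other 3 of these genes are shown to let their sequences be compared, since these genes fell together. Each is the 250 bases before a transcript start that RefSeq's promoter windows use in GRCm38.p6, the assembly behind mm10, on the gene's strand from 5′ to 3′, at chr6:5496279-5496528 (minus strand) for Pdk4, chr12:83987611-83987860 (plus strand) for Acot2 and chr5:17835897-17836146 (minus strand) for Cd36. Capitals mark AGGTCA (the core that PPAR and estrogen-related receptors bind), GGGCGG (a GC box) and CCAAT, on either strand. The windows of Pdk4 and Acot2 adjoin the ends of those genes given above, while that of Cd36 lies inside the span given for Cd36, before an internal transcript start, so sequence before the outermost start of Cd36 was not searched.
Pdk4: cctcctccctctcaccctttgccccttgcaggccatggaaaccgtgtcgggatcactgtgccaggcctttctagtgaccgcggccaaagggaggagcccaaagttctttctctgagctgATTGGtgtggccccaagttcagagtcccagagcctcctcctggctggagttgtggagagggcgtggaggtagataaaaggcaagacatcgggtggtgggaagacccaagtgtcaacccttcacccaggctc
Acot2: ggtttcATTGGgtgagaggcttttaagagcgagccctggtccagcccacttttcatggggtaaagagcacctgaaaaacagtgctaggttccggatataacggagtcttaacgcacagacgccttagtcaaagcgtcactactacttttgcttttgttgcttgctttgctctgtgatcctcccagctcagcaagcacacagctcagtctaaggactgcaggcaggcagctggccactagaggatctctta
Cd36: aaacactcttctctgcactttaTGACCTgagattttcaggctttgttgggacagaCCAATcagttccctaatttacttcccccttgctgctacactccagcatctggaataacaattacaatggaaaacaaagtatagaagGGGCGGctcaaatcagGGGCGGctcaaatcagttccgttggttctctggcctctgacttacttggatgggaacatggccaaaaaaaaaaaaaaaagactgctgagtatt
Of the 3, only Cd36 held AGGTCA (as its reverse complement TGACCT, 228 bases before that internal start) and GGGCGG (93 and 109 bases before it), while CCAAT or its reverse complement occurred once in each. Promoter windows were at hand for 33 of the 37 members, and a gene with several windows was counted where any of them held the motif. For some other members too the start that the window precedes lies within the gene. An exact DR1, a direct repeat of AGGTCA with a single base between, bound by PPARs, occurred in 0 of these 33 genes, against 0.0407% of 27025 genes. TCAAGGTCA, an element of estrogen-related receptors that contains AGGTCA, occurred in 0 of the 33, against 0.422%. At such low shares over all genes, 0 of 33 was the likely outcome for both. Only exact matches were counted and imperfect repeats were not searched, so these 0 counts do not show that the promoters lack such elements. AGGTCA alone occurred in 6 of 33 (18.2%) members and in 15.8% of all genes. GGGCGG occurred in 21 of 33 (63.6%) and in 35.4% of all genes, and CCAAT in 18 of 33 (54.5%) and in 37.5%. The 27025 genes were all genes with a window, expressed here or not, while the members are all expressed. The shares were not compared among expressed genes alone. These counts describe letters in a short window, on both strands, and elements outside it were not searched.

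The uptake genes were unequal in level. Per kilobase of exon, Cd36 ranked 2 of the 37 members with 163 CPM per kilobase in the first set, and 1 with 796 CPM per kilobase in the 3M set. Its 3M values were 2312, 1807 and 2021 CPM in Chaf1a cko 3M and 6097, 2954 and 1958 CPM in Ctrl 3M. One Ctrl 3M library, replicate 1, was far above the other 5, and the groups overlapped (log2 fold change -0.84, SE 0.39, adjusted p 0.731 in edgeR). Without Ctrl 3M replicate 1 the value was -0.26. Slc27a1, a fatty acid transport protein, was at 16.5, 21.7 and 23.8 CPM in Chaf1a cko and at 23.8, 19.6 and 19.6 CPM in Ctrl, so the groups overlapped. Its 3M values were 452, 281 and 257 CPM in Chaf1a cko 3M and 229.5, 215 and 292 CPM in Ctrl 3M (log2 fold change 0.43, adjusted p 0.776 in edgeR).

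Of the 4 acyl-CoA synthetases, which activate fatty acids, 0 passed in either set. Acsl1, the main synthetase of heart muscle, was at 200.4, 182 and 200.2 CPM in Chaf1a cko, against 232, 225 and 222 CPM in Ctrl. The groups did not overlap, but the gene missed the threshold (log2 fold change -0.22, SE 0.06, adjusted p 0.0859 in edgeR). Acsl1 in the 3M set was at 338, 311 and 215 CPM in Chaf1a cko 3M and at 249.9, 212 and 276 CPM in Ctrl 3M, with overlapping groups. Acsl4, an X-linked synthetase that prefers arachidonic acid, was at 29.6, 20.1 and 29.9 CPM in Chaf1a cko 3M, against 84.6, 39.0 and 39.3 CPM in Ctrl 3M. All its Chaf1a cko 3M values were below all Ctrl 3M values, with the highest again in Ctrl 3M replicate 1 (log2 fold change -1.03, SE 0.35, unadjusted p 0.0161, adjusted p 0.633 in edgeR, and -0.56 without that library). First-set values of Acsl4 were 47.8, 35.8 and 41.4 CPM in Chaf1a cko and 61.4, 48.3 and 44.1 CPM in Ctrl (log2 fold change -0.30, adjusted p 0.464 in edgeR). Acsl3, a synthetase of lipid droplets and the endoplasmic reticulum, was at 108, 99.5 and 111 CPM in Chaf1a cko and at 109.6, 87.3 and 99.6 CPM in Ctrl. Acsl5, a synthetase better known from gut and liver, was at 71.5, 81.9 and 67.9 CPM in Chaf1a cko 3M and at 93.2, 92.9 and 74.1 CPM in Ctrl 3M, and its log2 fold changes of -0.11 (first set) and -0.23 (3M set) both had intervals that held 0. Acsl3 was low in the 3M set, at 1.34 to 8.41 CPM in Chaf1a cko 3M and 6.81 to 11.2 CPM in Ctrl 3M.

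The carnitine shuttle carries long-chain acyl groups through the mitochondrial membranes: CPT1 makes the carnitine ester, the carrier SLC25A20 brings it in, and CPT2 turns it back into acyl-CoA. Of its 4 genes 0 passed in either set. Cpt1b, the muscle form of CPT1, was at 147, 157 and 133.3 CPM in Chaf1a cko and at 169, 151 and 181 CPM in Ctrl (log2 fold change -0.20, adjusted p 0.357 in edgeR). The 3M libraries had 1000.02, 1068 and 951 CPM in Chaf1a cko 3M and 609, 721 and 1036 CPM in Ctrl 3M, where the highest Ctrl 3M library lay inside the range of Chaf1a cko 3M. Cpt1a, the liver form, was at 72.8, 85.6 and 77.0 CPM in Chaf1a cko and at 87.1, 82.8 and 96.6 CPM in Ctrl. Its 3M values were 143, 109.7 and 104 CPM in Chaf1a cko 3M and 89.8, 93.8 and 89.4 CPM in Ctrl 3M, without overlap (log2 fold change 0.38, SE 0.19, adjusted p 0.742 in edgeR). The muscle form outweighed the liver form in every library: the ratio of their CPM per kilobase, Cpt1b over Cpt1a, was 3.93 to 4.58 in Chaf1a cko and 4.14 to 4.38 in Ctrl, and 15.9 to 22.1 in Chaf1a cko 3M and 15.4 to 26.3 in Ctrl 3M. Within each set the ranges of the groups overlapped. A readthrough gene, Gm44502, shares 78.6% of the 50-base stretches of Cpt1b, and it had 0 to 70 counts in Chaf1a cko and 0 to 240 in Ctrl, and 150 to 4036 in Chaf1a cko 3M and 0 to 576 in Ctrl 3M, so the values of Cpt1b are uncertain. Cpt2 was at 29.0, 34.6 and 29.7 CPM in Chaf1a cko, against 35.5, 38.4 and 41.3 CPM in Ctrl, again without overlap (log2 fold change -0.30, adjusted p 0.408 in edgeR), and Slc25a20 at means of 24.8 ± 1.42 CPM in Chaf1a cko and 24.8 ± 3.60 CPM in Ctrl (SD, n = 3 each).

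Malonyl-CoA blocks CPT1. Acacb encodes the mitochondrial acetyl-CoA carboxylase that makes it, and Mlycd the decarboxylase that removes it. Acacb had the smallest unadjusted p of all members in the 3M set, at 707, 734 and 785 CPM in Chaf1a cko 3M and at 326, 479 and 526 CPM in Ctrl 3M. The groups did not overlap, but the gene did not pass (log2 fold change 0.74, SE 0.22, 95% interval 0.25 to 1.23, unadjusted p 0.0078, adjusted p 0.604 in edgeR). Acacb in the first set was at 102, 109 and 116 CPM in Chaf1a cko, against 121, 133.4 and 135 CPM in Ctrl, apart in the other direction (log2 fold change -0.26, SE 0.07, adjusted p 0.14 in edgeR). Mlycd was at 16.8, 12.5 and 22.9 CPM in Chaf1a cko and at 21.5, 20.8 and 20.1 CPM in Ctrl. Its 3M values were 81.1, 71.0 and 53.7 CPM in Chaf1a cko 3M and 43.7, 52.8 and 70.7 CPM in Ctrl 3M, so its groups overlapped in both sets.

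Of the 13 genes of beta-oxidation, 1 fell in the first set (Acaa2), 0 rose and 12 did not pass. Of the same 13 in the 3M set 0 passed. The acyl-CoA dehydrogenases carry out the first step for chains of different length. Acadl, for long chains, had the highest CPM per kilobase of all 37 members in the first set (304 CPM per kilobase), at 614, 640.5 and 632 CPM in Chaf1a cko and 601, 615 and 556 CPM in Ctrl (log2 fold change 0.09, SE 0.04, adjusted p 0.502 in edgeR). Acadl in the 3M set was at 322, 253 and 182 CPM in Chaf1a cko 3M and at 476, 220.0 and 332 CPM in Ctrl 3M, with overlap. Acadvl, for very long chains, was at 146, 157 and 144 CPM in Chaf1a cko, against 165, 160.2 and 168 CPM in Ctrl, without overlap (log2 fold change -0.14, adjusted p 0.43 in edgeR). Exons of Dvl2 on the other strand cover 42.9% of those of Acadvl, and whether counting used strand is not stated, so reads of the 2 genes may be mixed. Acadvl had the highest mean CPM of this step in the 3M set, at 414, 335 and 306 CPM in Chaf1a cko 3M and 301, 288 and 355 CPM in Ctrl 3M, with overlap (log2 fold change 0.16, SE 0.20, adjusted p 0.889 in edgeR). Acadm, for medium chains, was at 264, 268 and 263 CPM in Chaf1a cko, against 282, 278 and 274 CPM in Ctrl, a difference of -0.07 (SE 0.05, adjusted p 0.705 in edgeR). Acadm in the 3M set was at 428, 332 and 296 CPM in Chaf1a cko 3M, against 277, 269 and 283 CPM in Ctrl 3M, so that it was below Ctrl in every library of the first set and above Ctrl 3M in every library of the 3M set, without passing in either (log2 fold change 0.35, adjusted p 0.762 in edgeR). Acads, for short chains, had log2 fold changes of -0.08 (first set) and 0.06 (3M set).

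Hadha and Hadhb encode the alpha and beta subunits of the mitochondrial trifunctional protein, which runs the last steps of beta-oxidation for long chains. They lie head to head on chromosome 5, with 272 bases between their first bases in the RefSeq annotation of GRCm38.p6. The 250 bases before the start of Hadha, at chr5:30154981-30155230 (minus strand), are printed because most of them lie upstream of both genes, and capitals mark the 228 bases that also lie in the 250 bases before Hadhb.
Hadha: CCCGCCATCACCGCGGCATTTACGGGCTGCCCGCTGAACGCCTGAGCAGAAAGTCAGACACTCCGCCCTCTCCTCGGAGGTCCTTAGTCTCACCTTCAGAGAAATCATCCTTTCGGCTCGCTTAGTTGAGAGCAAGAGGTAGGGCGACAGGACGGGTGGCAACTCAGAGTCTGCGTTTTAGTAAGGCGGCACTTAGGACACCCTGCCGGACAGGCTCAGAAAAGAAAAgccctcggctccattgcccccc
Hadha was at 396, 425 and 417 CPM in Chaf1a cko, against 448, 451 and 447 CPM in Ctrl, and the groups did not overlap (log2 fold change -0.12, SE 0.04, adjusted p 0.317 in edgeR). Hadhb was at 53.4, 51.2 and 47.1 CPM in Chaf1a cko, against 54.4, 51.3 and 58.1 CPM in Ctrl (log2 fold change -0.11, SE 0.10, adjusted p 0.808 in edgeR). Per kilobase of exon the alpha subunit was 5.60 to 6.70 times the beta subunit in Chaf1a cko and 5.81 to 6.64 times in Ctrl. Hadha in the 3M set was at 344, 355 and 277 CPM in Chaf1a cko 3M and at 207, 292 and 308 CPM in Ctrl 3M, and Hadhb at 218, 190.1 and 151 CPM in Chaf1a cko 3M and at 208, 172 and 181 CPM in Ctrl 3M. There the ratio per kilobase was 1.19 to 1.41 in Chaf1a cko 3M and 0.752 to 1.28 in Ctrl 3M. The tables were counted separately and the ratios were not tested between them, and 19.7% of the 50-base stretches of Hadhb occur in transcripts of other genes.

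The other enzymes of the spiral did not pass in the first set. Hadh, the dehydrogenase of shorter chains, was at 157 ± 2.48 CPM in Chaf1a cko and 158 ± 9.63 CPM in Ctrl, and Echs1, the short-chain hydratase, at 76.0 ± 7.18 CPM in Chaf1a cko and 66.5 ± 14.4 CPM in Ctrl (SD, n = 3 each). Eci1, Eci2 and Decr1, which prepare unsaturated chains, had log2 fold changes of -0.04, -0.17 and 0.01, with standard errors between 0.12 and 0.18. Eci2 in the 3M set was at 116, 107 and 116 CPM in Chaf1a cko 3M, against 74.1, 94.1 and 91.4 CPM in Ctrl 3M. Its groups did not overlap (log2 fold change 0.39, SE 0.18, adjusted p 0.73 in edgeR). Acaa2 was at 195, 135 and 135 CPM in Chaf1a cko 3M and at 155, 171 and 232 CPM in Ctrl 3M, with overlap (log2 fold change -0.27, SE 0.24). Acaa1a, a thiolase of peroxisomes that shares 12.4% of its 50-base stretches with Acaa1b, had log2 fold changes of -0.11 and 0.01 in the first and the 3M set.

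Among the thioesterases, Acot2 was the member that fell in the first set. Acot1, its cytosolic neighbour on chromosome 12, shares 24.5% of the 50-base stretches of Acot2, so reads could be split between them and both values are uncertain. Acot1 was at 16.3, 13.6 and 14.5 CPM in Chaf1a cko, against 21.1, 14.2 and 14.6 CPM in Ctrl (log2 fold change -0.17, SE 0.20), so the groups overlapped. Both were low in the 3M set: Acot2 was at 12.7, 7.12 and 17.2 CPM in Chaf1a cko 3M and at 12.9, 13.1 and 6.31 CPM in Ctrl 3M, and Acot1 at 1.97, 7.64 and 0.509 CPM in Chaf1a cko 3M and 4.60, 2.01 and 5.59 CPM in Ctrl 3M. Acot13 had the sign opposite to Acot2 in the first set, at 75.5, 60.8 and 64.4 CPM in Chaf1a cko and 62.6, 50.1 and 56.1 CPM in Ctrl (log2 fold change 0.25, SE 0.11, unadjusted p 0.0317, adjusted p 0.432 in edgeR). It was the single member above 0 at an unadjusted p under 0.05, and in the 3M set it was at 95.2, 75.6 and 120.3 CPM in Chaf1a cko 3M and 88.0, 74.4 and 128 CPM in Ctrl 3M. Ucp3, an uncoupling protein of muscle mitochondria and a known PPAR target, was at 3.40 ± 0.137 CPM in Chaf1a cko and 3.74 ± 0.721 CPM in Ctrl (SD, n = 3 each). This lay below 5.31 CPM, the 95th percentile of 1505 chemoreceptor genes in that table, which are taken as mostly silent in heart cells, so nothing is read from it. In the first set 94.8% to 97.6% of these chemoreceptor genes had counts in a library, with a median of 1.65 CPM. In the 3M set it was 1.13% to 1.59%, with a median of 0 CPM. The part of such a background in the first-set values of the other members was not tested. Ucp3 in the 3M set was at 279, 179 and 114 CPM in Chaf1a cko 3M and at 124, 93.3 and 164 CPM in Ctrl 3M (log2 fold change 0.59, SE 0.34, adjusted p 0.77 in edgeR).

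The electron transfer flavoprotein takes electrons from the acyl-CoA dehydrogenases, and its dehydrogenase, encoded by Etfdh, hands them to ubiquinone. Its subunits and the dehydrogenase had opposite signs in the first set. Etfa was at 134.3, 130.2 and 122 CPM in Chaf1a cko, against 121, 122 and 115 CPM in Ctrl, and Etfb at 149, 159 and 157 CPM in Chaf1a cko, against 142, 135 and 147 CPM in Ctrl. Etfdh was at 117, 117 and 121 CPM in Chaf1a cko, against 127, 143 and 143 CPM in Ctrl. The groups did not overlap for any of the 3, and 0 of 3 passed (log2 fold changes 0.11, 0.13 and -0.21, adjusted p 0.646, 0.504 and 0.213 in edgeR). Each had the sign opposite to the first set in the 3M set (log2 fold changes -0.22, -0.18 and 0.37), with overlapping groups and adjusted p between 0.82 and 0.903 in edgeR. Etfa was there at 167, 145 and 83.0 CPM in Chaf1a cko 3M and 203, 117 and 140.4 CPM in Ctrl 3M. Etfb was at 336, 284 and 319.7 CPM in Chaf1a cko 3M and 306, 332 and 428 CPM in Ctrl 3M, and Etfdh at 152, 111 and 87.3 CPM in Chaf1a cko 3M and 65.5, 87.4 and 117 CPM in Ctrl 3M. A readthrough gene, Gm45233, covers 53.0% of the exons of Etfb and shares 43.8% of its 50-base stretches. Gm45233 is not among the counted genes, and how reads of the shared part were assigned is not stated, so the values of Etfb are uncertain.

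Of the 4 regulators that accompany Pdk4 in this group, 0 passed in either set. Ppargc1a, which encodes PGC-1 alpha, was at 242, 227 and 204 CPM in Chaf1a cko and at 234, 211 and 206 CPM in Ctrl (log2 fold change 0.05, SE 0.07, 95% interval -0.09 to 0.19). Ppara was at 36.7, 32.7 and 34.2 CPM in Chaf1a cko and at 33.8, 30.0 and 27.9 CPM in Ctrl, and Esrra at 23.9, 19.1 and 16.1 CPM in Chaf1a cko and at 17.0, 15.4 and 14.9 CPM in Ctrl. Their log2 fold changes were 0.18 and 0.32, and neither passed (adjusted p 0.729 and 0.601 in edgeR). Ppard was at 25.9 ± 1.98 CPM in Chaf1a cko and 26.1 ± 1.22 CPM in Ctrl (SD, n = 3 each). All 5 genes of this group had log2 fold changes above 0 in the 3M set, between 0.06 and 0.98, and 0 passed. Esrra was at 190.0, 203 and 174 CPM in Chaf1a cko 3M, against 112, 137.3 and 171 CPM in Ctrl 3M, without overlap (log2 fold change 0.43, SE 0.21, adjusted p 0.731 in edgeR). Ppara was at 26.4, 23.1 and 33.1 CPM in Chaf1a cko 3M and at 3.00, 25.5 and 13.1 CPM in Ctrl 3M, with the lowest value in Ctrl 3M replicate 1 (log2 fold change 0.98, SE 0.66, adjusted p 0.799 in edgeR, and 0.51 without that library). Pdk4 spread widely, at 494, 374 and 170.0 CPM in Chaf1a cko 3M and at 409.8, 97.2 and 209 CPM in Ctrl 3M (log2 fold change 0.53, SE 0.60, adjusted p 0.884 in edgeR).

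Across the 3M set 0 of the 37 genes passed, against 0.0144% of the 13925 genes tested, which is 2 genes (0.00718% higher and 0.00718% lower). DESeq2's Wald test also passed 0 members there. At an unadjusted p under 0.05, 1 member was higher (Acacb) and 1 was lower (Acsl4), against 3.20% and 3.73% of all genes (6.93% together). Of the members 23 were above 0 and 14 below, with a median of 0.16, against 48.0% above and 52.0% below of all genes and a median of -0.02. The groups did not overlap in 6 members, 5 higher and 1 lower, against 14.1% of all genes, 7.21% higher and 6.89% lower. For the first set the count was 13 members, 2 higher and 11 lower, against 16.2%, 8.33% and 7.85%. The precision differed between the sets: the median standard error of the members' log2 fold changes was 0.101 for the first set, against 0.238 for the 3M set. The median coefficient of variation between libraries was 6.38% in Chaf1a cko and 7.93% in Ctrl, and 18.5% in Chaf1a cko 3M and 22.0% in Ctrl 3M.

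**Figure D3:**
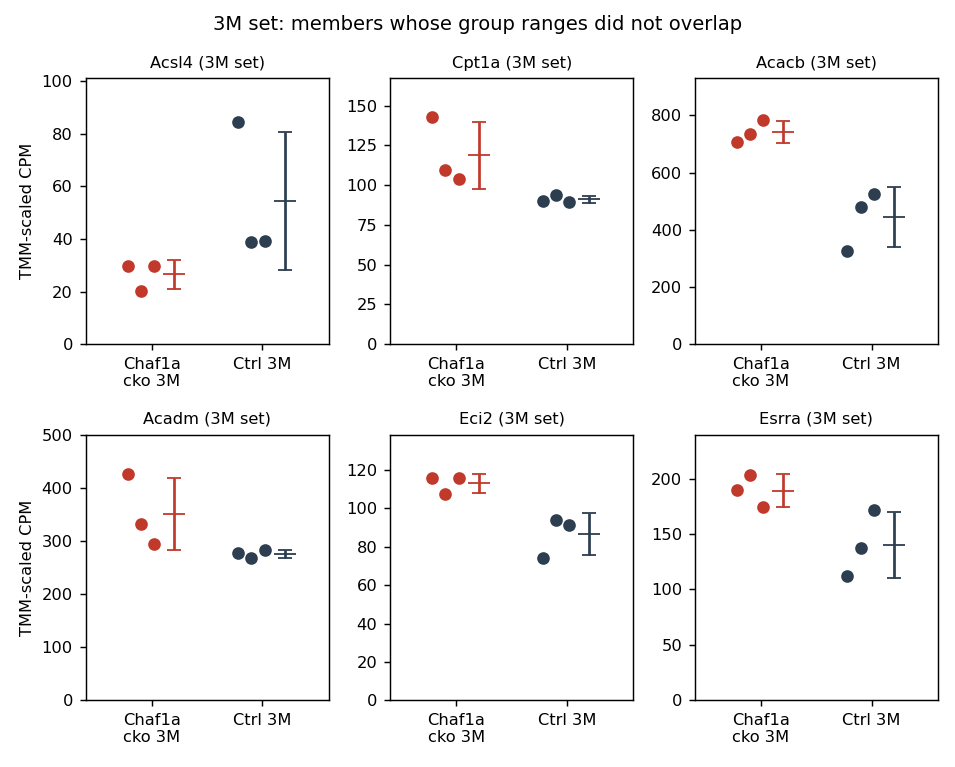
TMM-scaled CPM of the 6 members whose groups did not overlap in the 3M set, per library (points), with the mean and SD of 3 libraries (bars). Cpt1a, Acacb, Acadm, Eci2 and Esrra were higher in Chaf1a cko 3M and Acsl4 was lower, and 0 of the 6 passed an adjusted p of 0.05.

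Signs often differed between the sets. Of the 37 genes, 18 were below 0 in the first and above 0 in the 3M set, 6 the other way round, 8 below 0 in both and 5 above 0 in both. The difference between the effects was tested as an interaction of set and genotype over all 12 libraries, and 0 of 37 members passed, against 0.0658% of 22803 genes. At an unadjusted p under 0.05 there were 4 members, against 9.47% of all genes, each with a higher value in the 3M set: Acacb (difference 1.04, SE 0.22, adjusted p 0.175 in edgeR), Cpt1a (0.60, adjusted p 0.417), Cpt1b (0.58, adjusted p 0.526) and Acadm (0.46, adjusted p 0.526). Over the alternatives and left-out libraries the adjusted p of Acacb ran from 0.00497 to 0.516. DESeq2's Wald test passed 1 member, Acacb (adjusted p 0.00497), and Acacb also passed in edgeR without Ctrl 3M replicate 3 (adjusted p 0.0491). DESeq2's Wald test passed many more genes of all kinds than edgeR did, as counted below. In the main edgeR test over all 12 libraries a difference between the effects was not shown for any member.

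**Figure D4:**
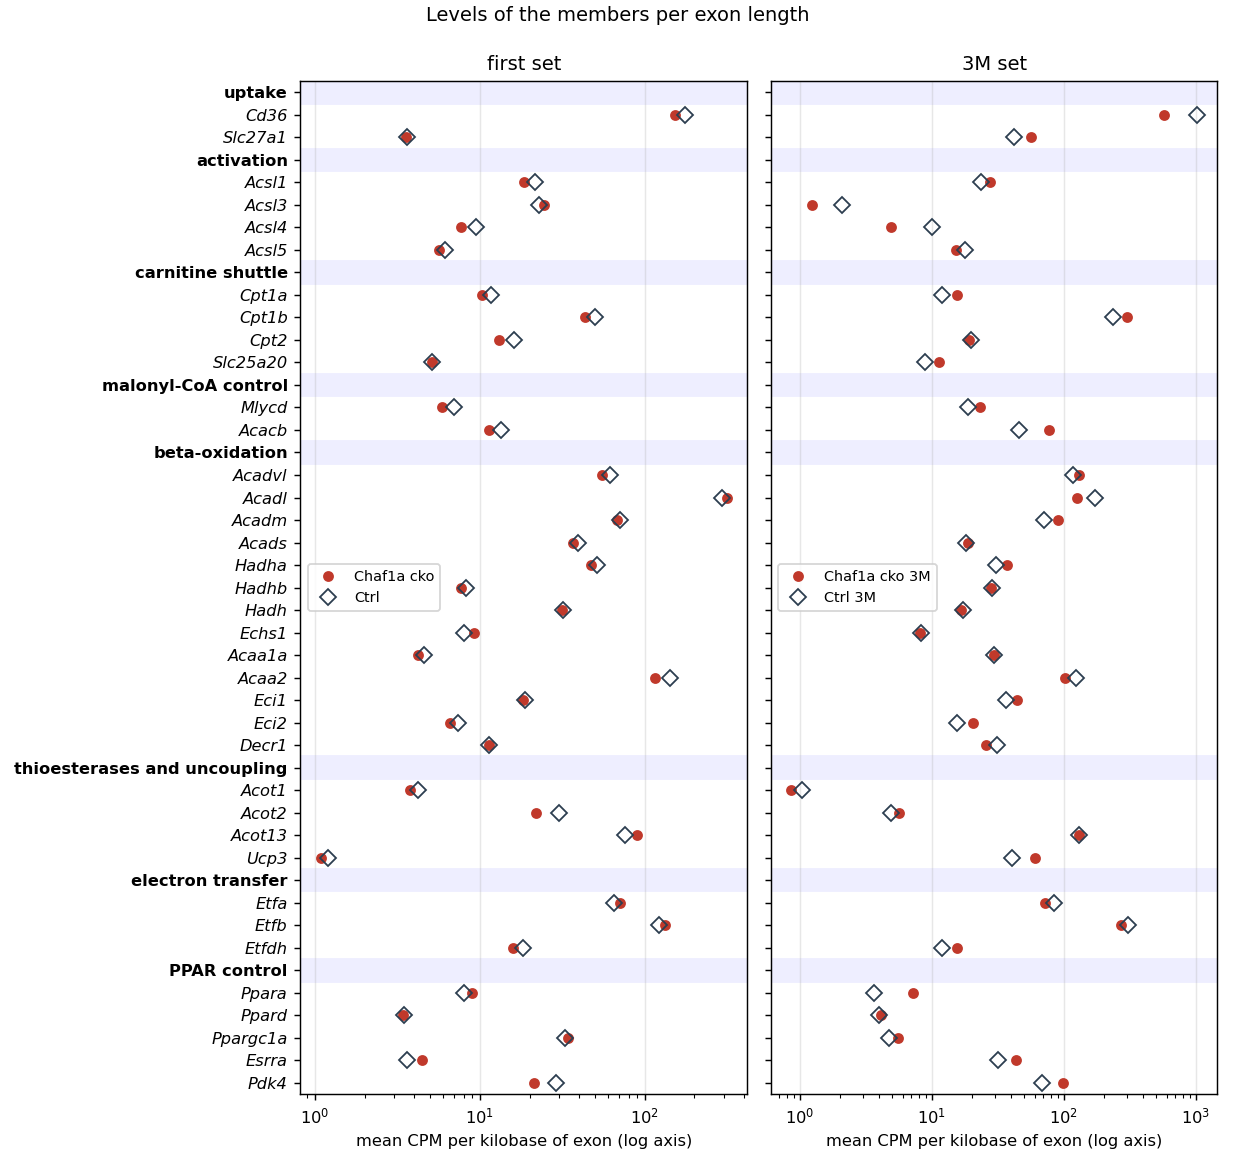
Mean CPM per kilobase of exon (log axis) of the 37 genes by step, in Chaf1a cko (red points) and Ctrl (open diamonds) of the first set on the left, and in Chaf1a cko 3M and Ctrl 3M on the right. Acadl and Cd36 are highest in the first set, Cd36 and Etfb in the 3M set, and the levels of the panels are not comparable as the tables were scaled separately.

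Of 75 further genes of fatty acid metabolism, its control and pyruvate entry, 1 rose in the first set, 0 fell and 74 did not pass. Of the 71 that could be tested in the 3M set 0 passed. The gene that rose was Acot9, a mitochondrial thioesterase, at 32.5, 38.3 and 39.1 CPM in Chaf1a cko, against 23.9, 25.9 and 22.2 CPM in Ctrl (log2 fold change 0.61, SE 0.13, adjusted p 0.0295 in edgeR). It had the direction opposite to Acot2. Acot9 lies on chromosome X, and the shift of Y-linked reads in the first set goes with the same groups. Its part in this result was not tested. Their median log2 fold changes were 0.01 (first set) and 0.02 (3M set). At an unadjusted p under 0.05, 8 of 75 were higher and 6 lower in the first set, against 5.63% and 4.50% of all genes, and 1 of 71 was higher and 2 lower in the 3M set, against 3.20% and 3.73%. The 1 call among 75 compares with 1.18% of all genes. Acot9 was the 1 of 15 genes of other acyl-CoA steps that passed. Of 8 other genes of uptake and binding 0 passed, and of 7 of activation and carnitine handling, 12 of peroxisomal oxidation, 17 of transcriptional control, 6 other PPAR targets and 10 of pyruvate dehydrogenase and pyruvate entry 0 passed in either set. First-set medians differed between these lists. The other PPAR targets had -0.33 (4 below 0 and 2 above), with 3 lower and 0 higher at an unadjusted p under 0.05 in edgeR. Pyruvate dehydrogenase and pyruvate entry had 0.12 (2 below 0 and 8 above), with 0 lower and 3 higher. The remaining lists had medians between -0.05 and 0.10.

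Summed over all 37 genes, the members took 0.436% ± 0.00847 of the counts in Chaf1a cko and 0.470% ± 0.00902 in Ctrl, and 0.863% ± 0.102 in Chaf1a cko 3M and 0.911% ± 0.149 in Ctrl 3M (SD, n = 3 each). The marker lists are given beside them. For the first set, the 10 cardiomyocyte markers took 10.5% to 10.9% of the counts in Chaf1a cko and 11.2% to 11.4% in Ctrl, with 4 lower (Myh6, Ttn, Ryr2 and Actc1), 1 higher (Myh7) and 5 not past the threshold. The 10 fibroblast markers took 0.295% to 0.303% in Chaf1a cko and 0.367% to 0.373% in Ctrl. Of these, 5 were lower (Col1a1, Col1a2, Col3a1, Dcn and Lum), 0 higher and 5 not past the threshold. By sign 9 were below 0 and 1 above, Tcf21, whose groups did not overlap (log2 fold change 0.63, adjusted p 0.177 in edgeR). The 10 endothelial markers took 0.294% to 0.299% in Chaf1a cko and 0.294% to 0.307% in Ctrl, with 0 past the threshold. The 6 adipocyte markers summed to 8.24 to 10.8 CPM in Chaf1a cko and 13.1 to 15.7 CPM in Ctrl, with 0 past the threshold. All but Lep had means below the 5.31 CPM used for Ucp3, and Lep was at 3.69 CPM in Chaf1a cko and 6.45 CPM in Ctrl, so nothing is read from this list. Of 8 mural markers in the first set 1 fell (Myh11, adjusted p 0.0118 in edgeR), 1 rose (Cnn1, adjusted p 0.023) and 6 did not pass, and of 8 in the 3M set 0 passed. The 6 erythroid markers summed to 2281 to 2306 CPM in Chaf1a cko and 1638 to 2209 CPM in Ctrl, with 0 past the threshold. In the 3M set cardiomyocyte markers took 5.07% to 5.44% in Chaf1a cko 3M and 3.28% to 4.21% in Ctrl 3M, and the 10 macrophage markers 0.0291% to 0.0356% in Chaf1a cko 3M and 0.0461% to 0.0536% in Ctrl 3M, with 0 of either list past the threshold. Of the cardiomyocyte markers 7 were above 0 there and 3 below (Tnni3, Mb and Myl2), and of the macrophage markers 3 above and 7 below. The largest differences in mean CPM among the cardiomyocyte markers were those of Myh6 and Ttn (6389 CPM in Chaf1a cko 3M and 3138 CPM in Ctrl 3M for Ttn). Fibroblast markers took 0.118% to 0.156% in Chaf1a cko 3M and 0.132% to 0.238% in Ctrl 3M, and endothelial markers 0.410% to 0.494% in Chaf1a cko 3M and 0.405% to 0.530% in Ctrl 3M. Erythroid markers took 0.405%, 0.325% and 0.0454% in Chaf1a cko 3M and 0.0652%, 0.0458% and 0.103% in Ctrl 3M, so that replicates 1 and 2 of Chaf1a cko 3M were above the other 4 libraries, and 0 of the 5 markers tested passed. The part of these shifts in the members' values was not tested.

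**Figure D5:**
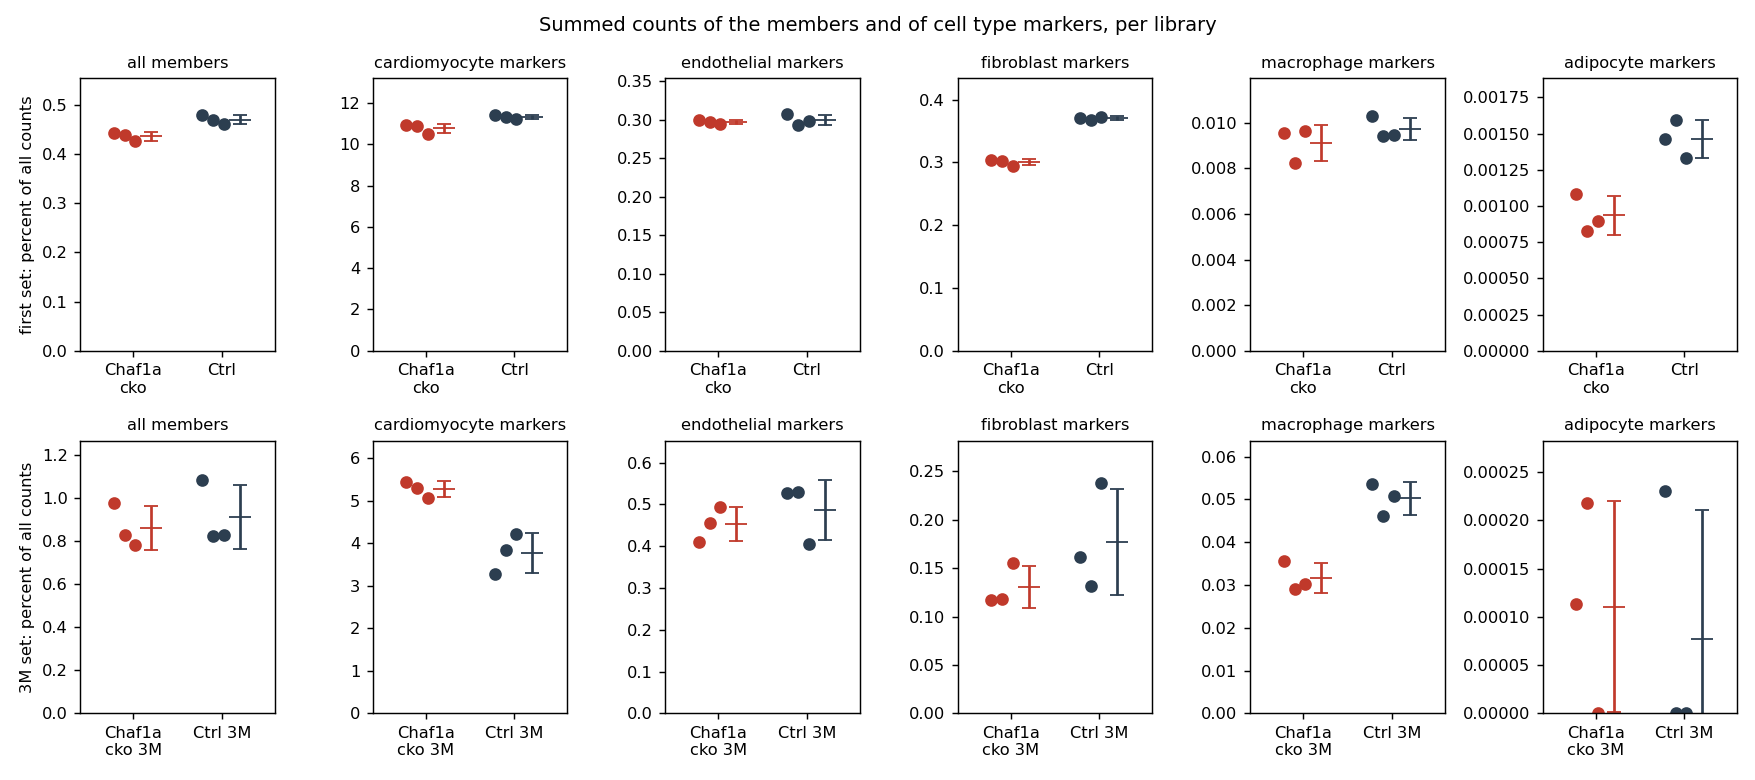
Percent of all counts in each library (points, with mean and SD of 3 libraries) taken by the 37 members and by markers of 5 cell types, in the first set (top) and the 3M set (bottom). In the first set the summed shares of the members and of cardiomyocyte, fibroblast and adipocyte markers are lower in all Chaf1a cko libraries. In the 3M set the summed share of cardiomyocyte markers is higher, and that of macrophage markers lower, in all Chaf1a cko 3M libraries. Single markers of these lists go both ways, and the members overlap between the groups of the 3M set.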

How the data were processed

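The authors deposited raw counts, whole numbers for each gene symbol in each library, as 2 tables of 6 libraries. FastQC, Trimmomatic, HISAT2 and mm10 are named, per the submitters' processing notes, while the program, annotation and strand option behind the counts are not stated. Groups follow the sample titles. The members and gene lists were chosen with earlier results of these data known. For each table, edgeR 4.0.16 (R 4.3.3) kept genes by filterByExpr (minimum count 10, minimum total 15), scaled by TMM, and compared cko with Ctrl by glmQLFit (robust) and glmQLFTest, two-sided. All 37 members passed the filter in both tables. The interaction was fitted over all 12 libraries. Values per library are given for members past the threshold, the 2 with the highest mean CPM of each step and those with the smallest unadjusted p of each step, and in part for others. Related genes are named where they passed. Counts were simulated with the estimated dispersions taken as true and with changes put into some genes of higher counts, a setting that may differ from the data. In these counts the share of false calls was mostly above the nominal threshold for both tables. Calls near the threshold are therefore less certain than their adjusted p states. Exon lengths and 50-base stretches come from GENCODE on GRCm38, promoters and coordinates from RefSeq on GRCm38.p6. Alternatives were other scalings, DESeq2 1.42.0, other filters, a replicate block and each replicate left out.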

Additional observations from a re-analysis of the deposited data

How the results depend on the processing

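Of the log2 fold changes of the members under the alternatives, 394 in the first set kept their direction and their side of the threshold, 21 lost the call, 5 gained it and 23 turned in sign. The 3M set had 410 that kept both and 32 that turned, and 0 members had passed there. Genes passing in the first set numbered 270, against 479 with DESeq2's Wald test and 128 to 201 with 1 library left out, and members numbered 4, against 6 with DESeq2's Wald test (Acsl1 and Acacb added), 7 with at least 10 CPM in 3 libraries (Acsl1, Acacb and Hadha added) and 0 to 3 with 1 library left out. In the 3M set 2 genes passed, against 72 with DESeq2's Wald test, 6 with no filter, 0 with the replicate block and 0 to 5 with 1 library left out. For the difference between sets 15 genes passed, against 454 with DESeq2's Wald test, 7 by library size alone, 6 with no filter, 0 with the replicate block and 1 to 110 with 1 library left out. Members passing there were 0, against 1 (Acacb) with DESeq2's Wald test and 0 to 1 with 1 library left out. The cause of these shifts was not tested.

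Same-numbered libraries did not deviate together (correlations -0.0136, 0.0239 and 0.0340 for the first set, and -0.000375, 0.0201 and 0.0101 for the 3M set), so the replicate block pairs by number alone. Under it 192 genes and 3 members passed in the first set, with Cd36 at an adjusted p of 0.0633 in edgeR. Without a filter Acot2 had 0.0556.

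Some directions turned, all of genes that had not passed. In the first set Slc25a20 was -0.0203 by library size alone, -1e-04 with DESeq2's Wald test and -0.0276 with at least 10 CPM, and Decr1 was -0.0114 by library size alone and -0.0204 with at least 10 CPM. In the 3M set Hadhb was 0.0233 by library size alone and 0.0031 with no filter, and Echs1 0.0069 by library size alone. With 1 library left out, first-set log2 fold changes ran as follows: Slc27a1 -0.130 to 0.116, Slc25a20 -0.0769 to 0.127, Decr1 -0.0760 to 0.0655, Ppard -0.0630 to 0.0418, Ppargc1a -0.0122 to 0.112, Eci1 -0.123 to 0.0306, Acads -0.154 to 0.0247, Acaa1a -0.214 to 0.0456, Acot1 -0.272 to 0.0384 and Hadh -0.0577 to 0.0284. The 3M values ran as follows: Acot1 -1.72 to 0.251, Cpt2 -0.227 to 0.0794, Hadh -0.315 to 0.117, Acaa1a -0.100 to 0.179, Ppard -0.107 to 0.227, Acads -0.0152 to 0.124, Hadhb -0.132 to 0.125, Echs1 -0.120 to 0.164, Acot2 -0.123 to 0.470, Acot13 -0.180 to 0.256 and Etfa -0.429 to 0.0284. Low counts limit Acot1 and Acsl3 in the 3M set. Ucp3 in the first set is limited by its level, which lay below that of the upper chemoreceptor genes. The spread between libraries limits the 3M set, where the median standard error of the members was 0.238.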
